A study of Mus musculus with 6 samples.

Results

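Muscle splicing regulators are RNA-binding proteins that decide which exons of sarcomere, ion channel and calcium-handling transcripts are kept in adult muscle. The group described here holds 10 genes of the 27179 listed in the count files: the muscleblind-like genes *Mbnl1*, *Mbnl2* and *Mbnl3*, the CUGBP/Elav-like genes *Celf1* and *Celf2*, the RNA-binding Fox genes *Rbfox1* and *Rbfox2*, the RNA-binding motif genes *Rbm20* and *Rbm24*, and quaking (*Qk*). They were chosen by symbol as tissue splicing regulators of muscle, each matched 1 row of the files, and all 10 were among the 16483 genes that passed the filter on low counts.

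RNA-seq of quadriceps muscle compared 3 miDrp1KO mice (mutants A, E and F, named by their replicate letters) with 3 control mice (B, C and D), all fed normal chow. The miDrp1KO mice carry floxed *Dnm1l* alleles, which encode the mitochondrial fission protein Drp1, and a tamoxifen-inducible Cre (HSA-MerCreMer) driven by the human skeletal actin promoter, so that deletion is aimed at muscle fibres and other cells of the tissue keep the gene. Control mice are given as f/f, carry floxed alleles on the same C57BL/6J background, and are not described as carrying the Cre, so the Cre transgene and the deletion cannot be told apart. The study's methods say that both groups received tamoxifen at 3 months of age, and its text places the RNA-seq 3 weeks after deletion. Whole muscle was used, in which fewer cells of a type and less RNA per cell cannot be told apart. The deleted gene, *Dnm1l*, was at 156, 114 and 140 CPM (counts scaled to library size) in controls B, C and D, against 70.6, 81.3 and 66.2 CPM in mutants A, E and F, lower in 3 of 3 (log2 fold change −0.91, standard error 0.18; adjusted p = 0.362 in edgeR).

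MBNL proteins promote adult exon choices at clusters of UGCU and CGCU in target transcripts, and CELF proteins, which bind UGU-rich sequence, often act on the same exons in the opposite direction. The loss of free MBNL protein and the rise of CELF1 are known from myotonic dystrophy, in which the chloride channel and other muscle transcripts return to their fetal forms. RBFOX proteins bind UGCAUG and RBM20 binds UCUU, the latter best known for shortening titin, RBM24 promotes muscle-specific exons, and QKI proteins bind ACUAA motifs and regulate both splicing and circular RNA formation. Counts per gene give the amount of each regulator's transcripts and of its targets, and do not show which exons were used.

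No regulator passed the test on all genes. Most lay somewhat lower in miDrp1KO muscle, led by *Rbm20* (66.9% of its mean level in control), *Rbfox1* (73.5%) and *Rbm24* (74.2%), whereas *Mbnl3*, the least expressed of the 10, was higher. With edgeR (quasi-likelihood test, p adjusted by Benjamini-Hochberg over 16483 genes) 0 of the 10 had an adjusted p under 0.05, against 0.0121% of all genes tested. DESeq2 also called 0 of them, against 2.55% of the genes to which it gave an adjusted p, and limma voom called 0, against 0.00607% of all genes. At an unadjusted p under 0.05 there were 2 regulators lower (*Rbm20* and *Rbm24*), where 6.22% of all genes were, and 1 higher (*Mbnl3*), where 4.68% were. The balance over all genes, 1025 lower and 771 higher, turned to 639 lower and 1192 higher under upper quartile normalization. It turned to 839 and 941 with ribosomal RNA genes and *Lars2* removed, and to 1085 and 1402 without the filter on low counts. Leaving out control B (618 lower, 935 higher) or control D (382 lower, 569 higher) also turned it. In 4 of the 10 the groups did not overlap, against 18.0% of all genes: *Rbm20*, *Rbm24* and *Celf1* were lower in all 3 miDrp1KO libraries (10.3% of all genes), and *Mbnl3* was higher in all 3 (7.67%). The log2 fold change was below 0 for 9 of the 10, against 48.0% of all genes, with a median of −0.17 beside 0.02 for all genes tested. The median was −0.058 without mutant F and −0.088 under upper quartile normalization, where *Celf2* and *Qk* also lay above 0. The 10 genes were chosen as a group with results of these libraries known, so these counts describe the list and carry no test.

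**Figure D1:**
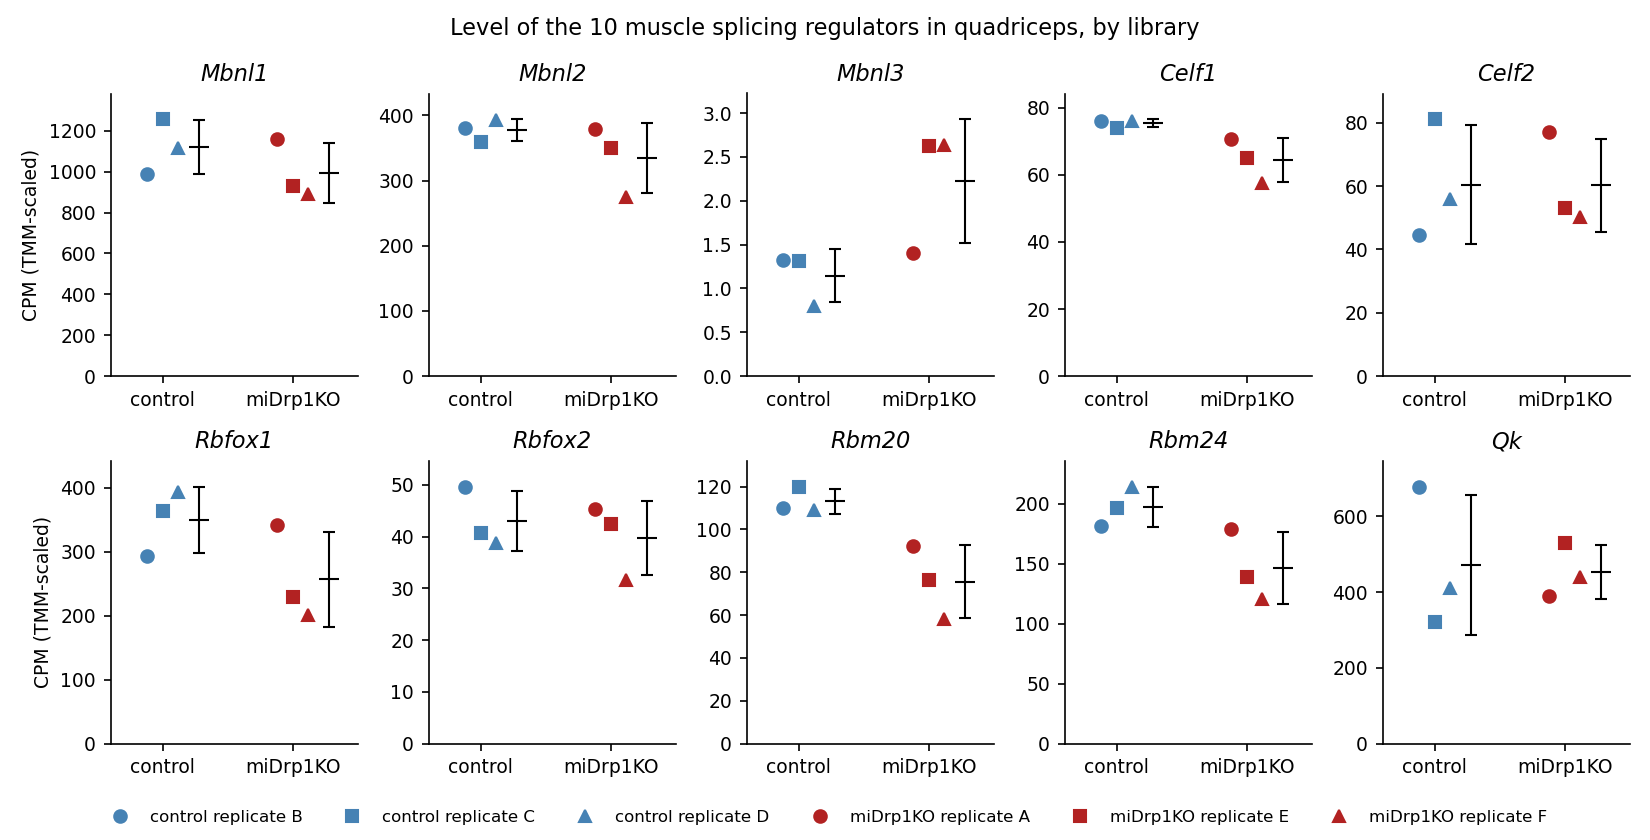
Level of each splicing regulator in CPM (counts scaled by TMM to a common library size; axes from 0) in the 3 control libraries (blue) and the 3 miDrp1KO libraries (red), with the mean and SD of each group in black. *Rbm20*, *Rbm24*, *Celf1* and *Mbnl3* are the 4 genes whose groups do not overlap, and miDrp1KO replicate A (red circles) lies nearest to control for each of these 4.

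**Figure D2:**
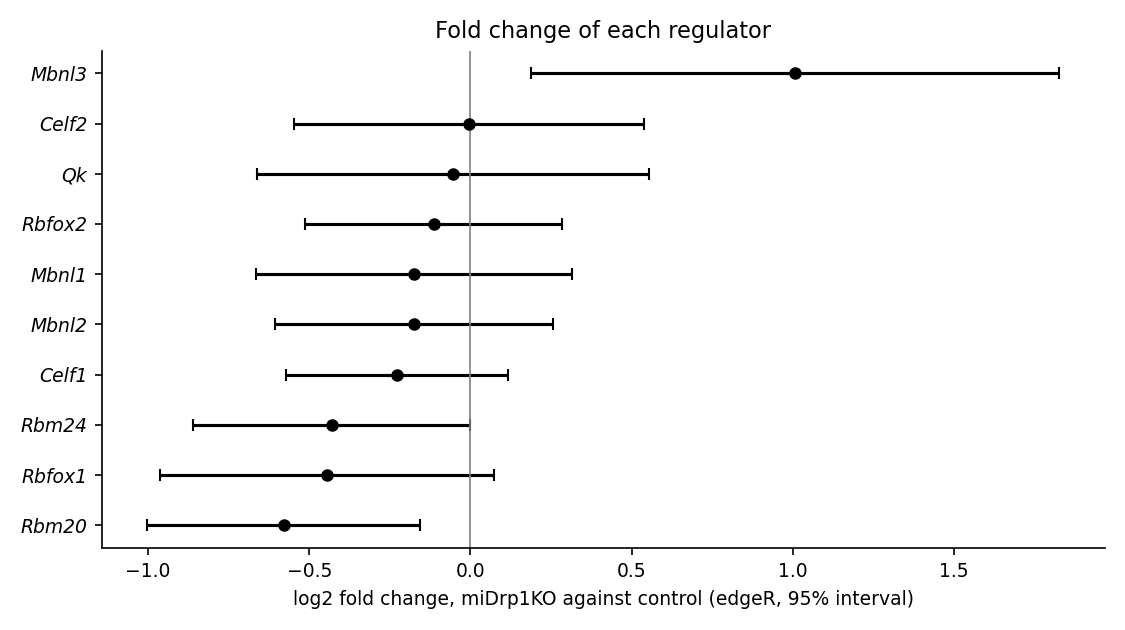
Log2 fold change of each regulator in miDrp1KO against control muscle in edgeR, with its 95% interval. The intervals of *Rbm20* and *Mbnl3* leave out 0, that of *Rbm24* ends at −0.00015, and the other 7 include 0; none of the 10 had an adjusted p under 0.05.

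Promoter sequences are shown for 3 of the 4 regulators whose groups did not overlap, so that the starts of a lower pair and of the single higher gene can be compared. They run from 250 bases before to 50 after the annotated start (RefSeq, GRCm38.p6, 5′ to 3′ on the gene's strand), and 8 of the 10 regulators matched that table. Gene positions given below come from GENCODE M21, where these starts differ. In GENCODE *Rbm24* starts at 46418434, past the end of its window, and *Mbnl3*, on the minus strand, at 51206532, so that its window lies inside the gene. Capitals mark CANNTG, the E-box that myogenic factors such as MyoD bind, a pattern that reads alike on both strands.
Rbm24, chr13:46418050-46418349, plus strand: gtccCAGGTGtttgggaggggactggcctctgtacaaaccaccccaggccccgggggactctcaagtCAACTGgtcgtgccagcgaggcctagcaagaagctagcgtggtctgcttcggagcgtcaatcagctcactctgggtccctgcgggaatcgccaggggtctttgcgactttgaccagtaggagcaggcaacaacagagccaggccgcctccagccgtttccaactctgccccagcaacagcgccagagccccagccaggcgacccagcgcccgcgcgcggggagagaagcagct
Celf1, chr2:90940147-90940446, plus strand: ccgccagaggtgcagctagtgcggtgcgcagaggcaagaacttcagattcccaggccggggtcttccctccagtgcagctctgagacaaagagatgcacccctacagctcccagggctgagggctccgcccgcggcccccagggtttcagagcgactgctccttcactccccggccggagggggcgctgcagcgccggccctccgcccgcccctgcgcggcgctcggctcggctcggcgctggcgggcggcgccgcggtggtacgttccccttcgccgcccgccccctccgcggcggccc
Mbnl3, chrX:51205941-51206240, minus strand: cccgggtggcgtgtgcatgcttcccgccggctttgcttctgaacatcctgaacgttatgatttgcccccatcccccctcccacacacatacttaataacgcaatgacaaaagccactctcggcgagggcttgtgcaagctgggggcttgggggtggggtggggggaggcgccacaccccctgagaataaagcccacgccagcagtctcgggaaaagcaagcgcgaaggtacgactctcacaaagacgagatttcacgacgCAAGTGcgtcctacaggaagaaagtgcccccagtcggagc
The *Rbm24* window holds 2 E-boxes (CAGGTG and CAACTG), that of *Mbnl3* 1 (CAAGTG) and that of *Celf1* 0, whereas 72.3% of the 32851 promoters in the table hold at least 1. The windows are rich in CpG, with 18 in *Rbm24*, 34 in *Celf1* and 19 in *Mbnl3* against a median of 7 over the table, and have a GC content of 64.7, 74.3 and 59.0% against a median of 52.7%. These are descriptions of sequence, and no binding was measured.

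Levels of different genes were compared per kilobase of annotated exon (CPM divided by the length of all exons merged). In control muscle *Rbfox1* stood first with a mean of 79.6 CPM per kilobase, followed by *Mbnl1* (59.9), *Rbm24* (56.5), *Qk* (33.1), *Mbnl2* (31.5), *Rbm20* (16.7), *Celf1* (8.92), *Rbfox2* (5.29), *Celf2* (2.34) and *Mbnl3* (0.131). This order rests on the exon lengths used, such as 4400 bases for *Rbfox1* and 18717 for *Mbnl1*. In CPM not divided by length, *Mbnl1* (control mean 1121) stood above *Rbfox1* (350). The control ranges overlapped for *Rbfox1* and *Mbnl1*, for *Mbnl1* and *Rbm24*, and for *Qk* and *Mbnl2*. Within each of the 3 control libraries *Rbfox1* stood above *Mbnl1*. The order of *Mbnl1* and *Rbm24*, and that of *Qk* and *Mbnl2*, turned between control libraries. The control ranges of the other neighbours in the list did not overlap. In miDrp1KO muscle *Rbfox1* (58.5) and *Mbnl1* (53.1) again stood above *Rbm24* (42.0) in mean CPM per kilobase. The 10 genes taken as markers of muscle fibres summed to 128426 to 142585 CPM in control libraries, so the defining genes of the labelled tissue were present.

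*Rbm20* (Entrez 73713, chromosome 19 of GRCm38, 53677306 to 53867080), which encodes the factor that removes exons of titin's elastic region, showed the lowest p of the 10. Control mice B, C and D had 110, 120 and 109 CPM, against 92.1, 76.5 and 58.4 CPM in mutants A, E and F. Every miDrp1KO library lay below every control library, with replicate F lowest (two-sided exact permutation test of log2 CPM, p = 0.1, the lowest value possible with 3 mice per group). The means were 113 ± 6.0 CPM (SD, n = 3) and 75.6 ± 16.9 CPM (SD, n = 3). For *Rbm20* the log2 fold change was −0.58 (standard error 0.19, 95% interval −1.0 to −0.16), with an unadjusted p of 0.0116 and an adjusted p of 0.382 (edgeR). Over 16 alternative settings it ran from −0.72 without miDrp1KO replicate A to −0.40 without replicate F, and the adjusted p from 0.102 to 0.877.

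*Rbm24* (Entrez 666794, chromosome 13, 46418434 to 46431095), a factor needed for muscle-specific exon inclusion in heart and skeletal muscle, had a like pattern. Controls B, C and D had 181, 196 and 214 CPM, against 179, 139 and 121 CPM in mutants A, E and F. Replicate A lay just under the lowest control library, and replicates E and F well below it (two-sided exact permutation test, p = 0.1). The log2 fold change was −0.43 (standard error 0.20, 95% interval −0.86 to −0.00015), with an unadjusted p of 0.0499 and an adjusted p of 0.459 (edgeR). With the unadjusted p at the threshold, RLE normalization (0.0524), upper quartile normalization (0.0775), a minimum of 10 counts per library (0.0602), removal of ribosomal RNA genes and *Lars2* (0.0588) and a covariate for the ribosomal RNA share (0.116) each moved it across, as did leaving out control B (0.0653), control C (0.0833), control D (0.186), mutant E (0.112) or mutant F (0.139), whereas it was 0.00823 without mutant A. Its relative *Rbm38*, another RNA-binding motif protein of muscle differentiation, held 67.2 to 121 CPM in control and 71.8 to 80.3 CPM in miDrp1KO libraries, with overlapping groups.

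Among the muscleblind-like genes, *Mbnl1* (Entrez 56758, chromosome 3, 60472830 to 60629750) is the main form of adult muscle. Control replicates B, C and D held 991, 1257 and 1116 CPM and mutants A, E and F 1159, 928 and 892 CPM. Replicates E and F lay under the control range and replicate A inside it. The log2 fold change of *Mbnl1* was −0.17 (standard error 0.22, 95% interval −0.67 to 0.32), an adjusted p of 0.806 (edgeR), and it ran from −0.28 without mutant A to −0.084 without mutant F. *Mbnl2* (Entrez 105559, chromosome 14, 120275669 to 120431697), which shares many target exons with *Mbnl1*, held 381, 359 and 392 CPM in control and 379, 350 and 275 CPM in mutants A, E and F. Replicate A again lay among the controls, and replicate F stood lowest. Its log2 fold change was −0.17 (standard error 0.20, 95% interval −0.61 to 0.26), an adjusted p of 0.781 in edgeR, and it was −0.25 without mutant A and −0.032 without mutant F. *Mbnl2* shares 86 exon bases with an annotated antisense gene, *Gm26679*, and the strand setting used in counting is not given in the sources used here.

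*Mbnl3* (Entrez 171170, chromosome X, 51117269 to 51206532), a form linked to undifferentiated muscle cells, was the exception in direction. Control replicates B, C and D held 28, 18 and 48 counts, and mutants A, E and F 29, 107 and 55 counts. These correspond to 1.33, 1.31 and 0.800 CPM in control and 1.41, 2.62 and 2.64 CPM in miDrp1KO muscle. Replicates E and F stood well above the controls, whereas replicate A exceeded the highest of them by little (two-sided exact permutation test, p = 0.1). Its log2 fold change was 1.01 (standard error 0.37, 95% interval 0.19 to 1.83), with an unadjusted p of 0.0205 and an adjusted p of 0.393 (edgeR). Without control replicate D it was 0.78, and the unadjusted p was 0.0908; this p was 0.0761 without mutant E and 0.0658 without mutant F. DESeq2 (Wald test) gave *Mbnl3* a p of 0.0224 before adjustment and none after it, since independent filtering removed it. Markers of satellite cells, the muscle stem cells which share the tissue, summed to 58.6 to 69.4 CPM in control and 53.0 to 61.0 CPM in miDrp1KO libraries. Of these 6 markers, *Cdh15* alone had an unadjusted p under 0.05 (log2 fold change −0.76), where 6.22% of all genes were lower at that p. *Itga7* was at −0.36. *Pax7* (0.68), *Myf5* (0.43), *Myod1* (0.42) and *Vcam1* (0.30) had log2 fold changes above 0, and the median of the list was 0.36. None was at 0 in any library.

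*Celf1* (Entrez 13046, chromosome 2, 90940382 to 91019497), which opposes MBNL1 at many fetal exons, had the least spread of the 10 in control muscle, with a coefficient of variation of 1.53%. It was at 76.0, 74.0 and 76.1 CPM in controls B, C and D, against 70.6, 65.0 and 57.6 CPM in mutants A, E and F. All 3 miDrp1KO libraries lay below the controls (two-sided exact permutation test, p = 0.1), replicate A by the least. The log2 fold change was −0.23 (standard error 0.16, 95% interval −0.57 to 0.12), an adjusted p of 0.619 (edgeR), and *Celf1* was at −0.13 without mutant F and −0.14 under upper quartile normalization. *Celf2* (Entrez 14007, chromosome 2, 6539694 to 7509563), which is also expressed in nerve, blood and vessel cells, held 44.4, 81.1 and 55.8 CPM in control and 77.2, 53.1 and 50.4 CPM in mutants A, E and F. The groups overlapped across nearly their whole range. Its log2 fold change was −0.0040 (standard error 0.24, 95% interval −0.55 to 0.54), and its sign turned in 10 of 16 alternatives. *Celf2* shares 1961 exon bases with *Gm26565* on the opposite strand, and without the strand setting their reads cannot be told apart.

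*Rbfox1* (Entrez 268859, chromosome 16, 5885355 to 7411526) encodes the main RBFOX protein of adult muscle. In controls B, C and D it reached 293, 363 and 394 CPM, against 341, 229 and 202 CPM in mutants A, E and F. Replicates E and F lay below all controls, and replicate A lay between control replicates B and C. For *Rbfox1* the log2 fold change was −0.44 (standard error 0.24, 95% interval −0.96 to 0.07), with an unadjusted p of 0.0855 and an adjusted p of 0.523 (edgeR). Without replicate A it was −0.68, and without replicate F −0.28. *Rbfox2* (Entrez 93686, chromosome 15, 77078990 to 77307004), the more widely expressed paralogue, held 49.7, 40.8 and 38.7 CPM in control and 45.3, 42.4 and 31.6 CPM in mutants A, E and F. Replicate F lay under the control range and the other two inside it. Its log2 fold change was −0.11 (standard error 0.18, 95% interval −0.51 to 0.29), an adjusted p of 0.852 in edgeR, and its sign turned without control B (0.019) and without mutant F (0.046).

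*Qk* (Entrez 19317, chromosome 17, 10202601 to 10319854) encodes the QKI proteins, which act in muscle, in myelinating cells and in vessel cells. It was at 678, 323 and 412 CPM in controls B, C and D, against 390, 531 and 440 CPM in mutants A, E and F. The control group spanned all 3 miDrp1KO values and had the widest relative spread of the 10 regulators, a coefficient of variation of 39.3%. The log2 fold change was −0.05 (standard error 0.28, 95% interval −0.66 to 0.55), an adjusted p of 0.962 (edgeR), and leaving out control C gave −0.29 and leaving out control B 0.32.

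The miDrp1KO libraries did not depart from control alike. Replicate F lay below all 3 controls for 7 of the 10 regulators, replicate E for 6 and replicate A for 3, and each lay above all controls for 1, *Mbnl3*. The share of all genes outside the control range was not set beside these counts for each library. They therefore describe the libraries at these 10 genes and cannot be read as particular to the regulators. The median deviation from the control mean over the 10 was −0.41 in replicate F, −0.18 in replicate E and −0.0096 in replicate A, on the log2 scale. Ribosomal RNA genes took 3.36 to 15.6% of counts in control libraries and 23.0, 1.47 and 24.4% in replicates A, E and F. A fit with that share as a covariate gave *Rbm20* a log2 fold change of −0.56 (unadjusted p = 0.0368) and *Rbm24* one of −0.42, with an unadjusted p of 0.116, above the threshold of 0.05. With ribosomal RNA genes and *Lars2* removed the values were −0.54 (unadjusted p = 0.0134) for *Rbm20* and −0.39 (unadjusted p = 0.0588) for *Rbm24*. Library totals ran from 13989588 to 62042255 counts in control and from 20028624 to 28829756 in miDrp1KO muscle.

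Markers of muscle fibres were lower in sum in miDrp1KO muscle, with 0 of 10 at an adjusted p under 0.05 (edgeR). The 10 fibre markers summed to 128426, 138561 and 142585 CPM in control mice B, C and D. In mutants A, E and F they summed to 106228, 66262 and 76970 CPM, lower in every miDrp1KO library and lowest in E. Of these markers 8 had a log2 fold change below 0, against 48.0% of all genes, and *Mb* (0.67) and *Pvalb* (0.03) lay above 0. The median was −0.54. At an unadjusted p under 0.05 there were 2 lower (*Myh4* and *Actn3*, a fast myosin and a fast-fibre actinin), where 6.22% of all genes were. For 3 (*Acta1*, *Myh4* and *Tnnc2*) every miDrp1KO library lay below every control, against 10.3% of all genes. Of 8 macrophage markers 2 were higher at an unadjusted p under 0.05, where 4.68% of all genes were. All 8 summed to 163 to 297 CPM in control and 241 to 270 CPM in miDrp1KO libraries. Of 6 adipocyte markers 2 were lower at that p, where 6.22% of all genes were. All 6 summed to 307 to 436 CPM in control and 232 to 284 CPM in miDrp1KO libraries. *Fabp4* alone held 243 to 296 CPM of this in control and 174 to 226 CPM in miDrp1KO libraries. Lists for endothelial cells (8 markers), fibroblasts (8), Schwann cells (7) and smooth muscle (6) held 0 genes at an unadjusted p under 0.05. The fibroblast list summed to 1346 to 1924 CPM in control and 1532 to 2473 CPM in miDrp1KO libraries. Summed levels of the other lists were 168 to 300 and 175 to 273 CPM for endothelial, 38.5 to 54.3 and 42.2 to 73.9 CPM for Schwann, 119 to 182 and 122 to 185 CPM for smooth muscle and 9.86 to 10.8 and 12.6 to 14.3 CPM for 7 lymphocyte markers, of which *Ptprc* was higher at an unadjusted p under 0.05. Markers at 0 occurred in the lymphocyte list, where 2 were at 0 in control replicate C and 1 in miDrp1KO replicate F. All 6 adipocyte markers had a log2 fold change below 0, with a median of −1.12. For 3 of them every miDrp1KO library lay below every control, as for 10.3% of all genes. Medians were 0.42 for Schwann (6 of 7 above 0), 0.36 for macrophage (5 of 8) and 0.27 for fibroblast markers (7 of 8). They were −0.08 for endothelial (3 of 8), −0.27 for smooth muscle (2 of 6) and 0.27 for lymphocyte markers (4 of 4 tested). The part of the fibre markers in the levels of the regulators was not tested.

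Ratios between regulators within a library do not depend on library scaling, and 5 were compared. The shift in myotonic dystrophy involves the loss of free MBNL protein, which transcript counts do not measure, so the ratio below is of transcripts only. In counts, the *Celf1* to *Mbnl1* ratio was 0.0767, 0.0589 and 0.0682 in control mice B, C and D. It was 0.0609, 0.0700 and 0.0646 in mutants A, E and F. All 3 miDrp1KO values lay inside the control range. The difference in log2 ratio was −0.05 (control SD 0.19, miDrp1KO SD 0.10, n = 3 each; two-sided exact permutation test, p = 0.7, adjusted over the 5 ratios 0.875), and it was 0.038 without control B and −0.15 without control C.

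The *Rbfox1* to *Rbfox2* ratio was 5.90, 8.89 and 10.2 in control and 7.54, 5.39 and 6.37 in mutants A, E and F, a log2 difference of −0.35 (two-sided exact permutation test, p = 0.3). The *Rbm24* to *Rbm20* ratio ran from 1.64 to 1.96 in control and from 1.82 to 2.07 in miDrp1KO muscle, a log2 difference of 0.16 (exact permutation p = 0.3), so the lower levels of both genes left their ratio within an overlapping range. For *Mbnl2* to *Mbnl1* the log2 difference was −0.0093 (exact permutation p = 1), and for *Celf2* to *Celf1* 0.24 (exact permutation p = 0.5). Leaving out control B gave 0.039 for *Celf2* to *Celf1*, and leaving out control C 0.49. The *Rbfox1* to *Rbfox2* difference was −0.58 without control B and −0.19 without control D. That of *Rbm24* to *Rbm20* ran from 0.11 without control C to 0.24 without control D. The groups overlapped for all 5 ratios, and their adjusted p ran from 0.75 to 1.

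**Figure D3:**
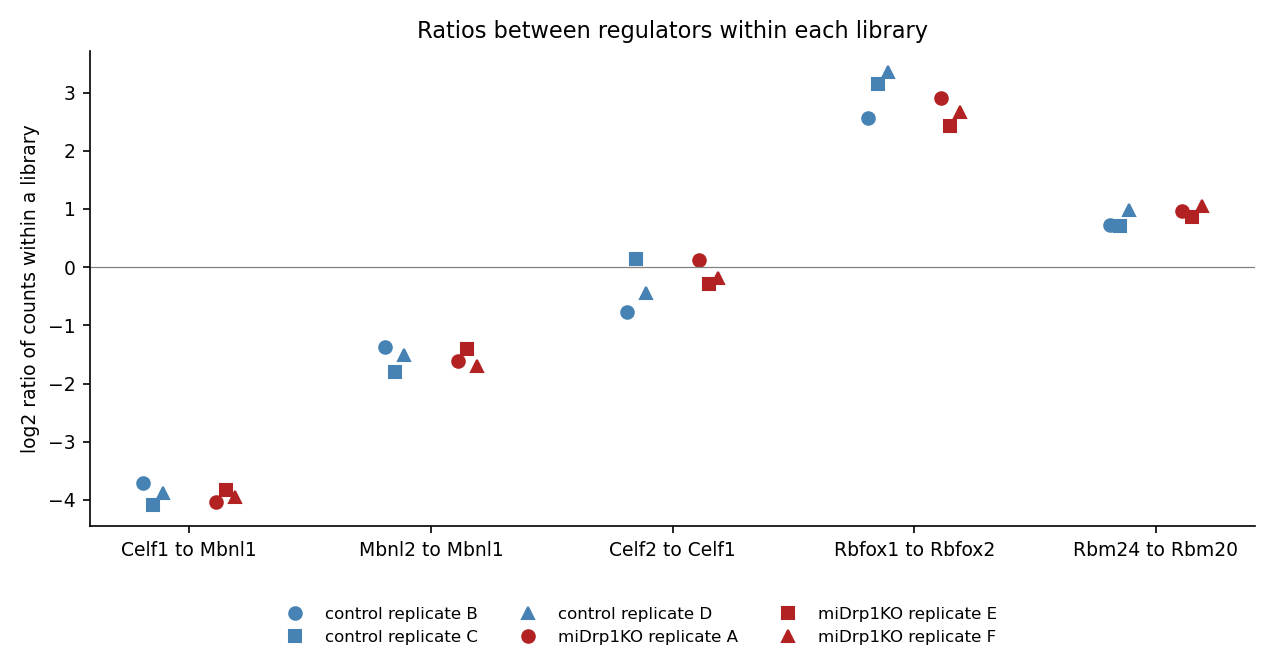
Log2 ratio of the counts of 2 regulators within each library, for 3 control (blue) and 3 miDrp1KO (red) libraries. The groups overlap for each of the 5 ratios, and the *Celf1* to *Mbnl1* values of miDrp1KO muscle lie inside the control range.

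Of the relatives from the same families, *Rbm38* was the only one tested above 3 CPM. *Celf3*, *Celf4*, *Celf5* and *Rbfox3*, which are mainly neuronal, were at most 2.38 CPM in any library, and *Celf6* did not pass the filter, with 2 to 8 counts per library. *Celf4* held 1.14, 0.947 and 0.733 CPM in control and 1.22, 1.25 and 1.82 CPM in mutants A, E and F, higher in 3 of 3 (log2 fold change 0.62, standard error 0.38, adjusted p = 0.574 in edgeR). The log2 fold changes of *Celf3* (0.10), *Celf5* (0.70) and *Rbfox3* (0.28) had overlapping groups, and 0 of the 5 relatives tested, *Rbm38* included, had an unadjusted p under 0.05.

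A wider list of 24 tissue splicing regulators, among them PTB, NOVA, ESRP, Sam68-like and ELAV-like proteins, had 21 tested members. Of these 0 had an adjusted p under 0.05 and 0 an unadjusted p under 0.05 in edgeR's quasi-likelihood test, with 10 above and 11 below 0 and a median log2 fold change of −0.03. The groups did not overlap for 3 of the 21 (2 higher and 1 lower), against 18.0% of all genes.

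Transcripts known as splicing targets of these regulators were looked at for their total amount. Of 31 targets, all tested, 0 had an adjusted p under 0.05 in edgeR's quasi-likelihood test, 8 were lower and 1 higher at an unadjusted p under 0.05, and 28 had a log2 fold change below 0 (median −0.35). Over all genes 6.22% were lower and 4.68% higher at that p, and 48.0% had a log2 fold change below 0. The groups did not overlap for 11, all lower, against 10.3% of all genes. The fibre markers had a median of −0.54, and their part in the levels of the targets was not tested.

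The target with the lowest p was *Camk2b*, a calcium/calmodulin-dependent kinase subunit, at 82.0, 78.6 and 85.1 CPM in control and 53.9, 40.1 and 44.4 CPM in mutants A, E and F (log2 fold change −0.83, standard error 0.17, adjusted p = 0.362 in edgeR). *Ryr1*, the calcium release channel of the sarcoplasmic reticulum, held 2535, 2346 and 2216 CPM in control and 1475, 967 and 414 CPM in miDrp1KO muscle (log2 fold change −1.31, standard error 0.39, adjusted p = 0.379 in edgeR). Both were lower in 3 of 3 miDrp1KO libraries, as was *Cacna1s*, the voltage sensor of the T-tubule, which showed −1.12 on the log2 scale (standard error 0.34; adjusted p = 0.379 in edgeR). *Bin1*, which shapes the T-tubule, had a log2 value of −0.57 for miDrp1KO against control (standard error 0.22), and *Mef2d*, a muscle transcription factor, −0.62 (standard error 0.24), with adjusted p of 0.407 for each in edgeR and no overlap of the groups. Titin (*Ttn*), the main target of RBM20, ran from 87773 to 141260 CPM in control and was 104110, 66485 and 26349 CPM in mutants A, E and F; it is named here for that link, outside the rule for named genes, and its groups overlapped (adjusted p = 0.556 in edgeR).

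**Figure D4:**
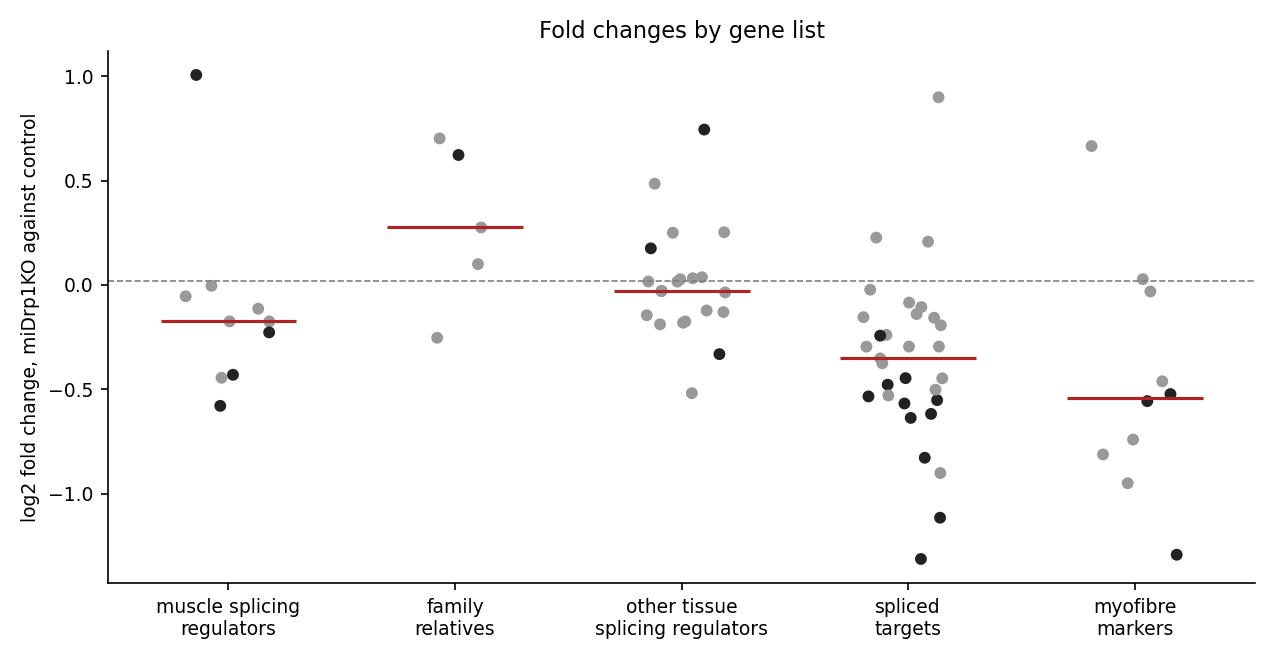
Log2 fold change of each tested gene by list, black where the 3 miDrp1KO libraries lay all above or all below control and grey where the groups overlapped; red lines are list medians and the dashed line is the median of all genes tested. The medians are −0.17 for the 10 splicing regulators, 0.28 for 5 family relatives, −0.03 for 21 other tissue splicing regulators, −0.35 for 31 spliced targets and −0.54 for 10 fibre markers.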

How the data were processed

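Total RNA of 6 quadriceps muscles was depleted of ribosomal RNA and made into stranded libraries. For each library the authors deposited a file of raw read counts by gene. The study's methods name FastQC, alignment to GRCm38 and Rsubread for counting. The pool of each library and the strand setting are not given in the sources used here. Groups come from the genotype labels; p-values measure the spread between 3 mice per group.

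The main test was edgeR 4.0.16 under R 4.3.3: TMM scaling, filterByExpr, a robust quasi-likelihood fit, and p adjusted by Benjamini-Hochberg over 16483 genes (threshold 0.05). Standard errors are the log2 fold change over the root of F. CPM used TMM library sizes; exon lengths and positions came from GENCODE M21 (GRCm38). Ratios used a pseudocount of 0.5. The common biological coefficient of variation was 0.252. Scripts were tested on simulated data. Alternatives were DESeq2 1.42.0, limma 3.58.1 voom, other normalizations and filters, leaving out 28 ribosomal RNA genes and *Lars2*, their share as a covariate, a length and GC correction (natural splines, 5 degrees of freedom, 90.0% of tested genes) and each replicate left out.

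Members, lists and the naming rule were chosen with earlier results of these data known. The rule took the 10 members, family relatives that passed the filter, *Dnm1l*, and up to 5 genes each of the other regulators and of the targets with the lowest unadjusted p under 0.05, and the 3 genes most like the leading member. *Ttn*, *Celf6*, *Lars2*, single markers of cell types and genes that overlap members were named outside this rule.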

Additional observations from a re-analysis of the deposited data

How the results depend on the processing

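No paired analysis was possible because control and miDrp1KO mice share no replicate letter. DESeq2 without independent filtering was added after the data were seen. In 16 alternatives 0 of the 10 regulators had an adjusted p under 0.05, and the median log2 fold change stayed negative, from −0.26 (without miDrp1KO replicate A) to −0.058 (without miDrp1KO replicate F). *Mbnl1*, *Mbnl2*, *Mbnl3*, *Celf1*, *Rbfox1*, *Rbm20* and *Rbm24* kept their direction in all 16. The number lower at an unadjusted p under 0.05 was 1 instead of 2 under RLE or upper quartile normalization. It was also 1 under a minimum of 10 counts per library, removal of ribosomal RNA genes and *Lars2*, or a covariate for the ribosomal RNA share. Without 1 replicate it ran from 1 to 3 (3 without miDrp1KO replicate A). Of all genes, 1025 of 16483 were lower at that p in the main fit. That count was 972 of 16483 under RLE, 639 of 16483 under upper quartile normalization and 755 of 16483 with the covariate. It was 815 of 13517 under the minimum of 10 counts and 839 of 16226 after the removal. Without 1 replicate it ran from 382 of 17750 (control replicate D left out) to 1589 of 17845 (miDrp1KO replicate A left out). The number of regulators higher ran from 0 (without control replicate D, miDrp1KO replicate E or miDrp1KO replicate F) to 1. Of all genes, 771 of 16483 were higher at that p in the main fit. The count was 569 of 17750 without control replicate D, 548 of 16753 without miDrp1KO replicate E and 617 of 17161 without miDrp1KO replicate F.

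*Celf2* reversed to 0.010 with limma voom, 0.0071 under RLE, 0.084 under upper quartile normalization, 0.0034 without the filter, 0.038 under the minimum of 10 counts, 0.032 after removal of ribosomal RNA genes and *Lars2*, and 0.019 with the length and GC correction, and ran from −0.20 to 0.24 without 1 replicate. *Qk* reversed to 0.00020 with limma voom and 0.032 with upper quartile normalization, and ran from −0.29 to 0.32 without 1 replicate. *Rbfox2* ran from −0.19 to 0.046 without 1 replicate. The log2 ratio difference of *Celf1* to *Mbnl1* ran from −0.15 to 0.038 and that of *Mbnl2* to *Mbnl1* from −0.13 to 0.084 without 1 replicate. The cause was not tested. *Mbnl3* rested on 18 to 107 counts per library, the fewest of the 10 regulators; the part of depth was not tested.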

Other observations

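The 3 genes whose level was most like that of *Rbm20* over the 6 libraries, among genes with a mean of at least 5 CPM, were *Eif4e2* (Pearson r = 0.998 of log2 CPM), *Senp1* (0.998) and *Ipo11* (0.997). *Eif4e2* encodes a cap-binding protein, *Senp1* a SUMO protease and *Ipo11* a nuclear import receptor. Controls B, C and D had 59.1, 62.7 and 58.4 CPM of *Eif4e2*, against 51.9, 46.0 and 39.6 CPM in mutants A, E and F, in the same order of libraries as *Rbm20* in miDrp1KO muscle. These are descriptions over 6 libraries that share scaling and group, picked as the most alike of all genes compared, and they carry no test.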
